A study of Mus musculus with 17 samples.

Results

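Fos, Atf3 and Zfp36 are 3 immediate-early genes, and their levels were followed here across 17 single cells of mouse back skin. They were taken by gene symbol and are 3 of the 8446 rows of the expression table. All 17 cells form 1 group. They came from adult C57BL/6 mice of the genotype Prrx1-CreERT;Tomato, in which tamoxifen activates a Cre recombinase made where Prrx1 is active and the recombined cells then carry the red Tomato protein. Prrx1 is a homeobox gene of limb and skin mesenchyme, so the group stands for cells in which Prrx1 was active during the injections. Tamoxifen was given at 2 mg per 30 g once a day for 3 days. The skin was digested at 37 °C, with elastase at 0.2 mg/ml for 20 min and then with type IV collagenase at 4 mg/ml for 1.5 h. Tomato+ cells were isolated by flow sorting, and each was then hand-picked by its fluorescence under a microscope. No animal is named for any cell and there is no second group, so the 17 cells count as 1 sample, spreads are between cells, and no test was made.

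Immediate-early genes are switched on within minutes of a stimulus, without new protein synthesis, and their mRNAs are short-lived. Fos protein pairs with Jun proteins to form the AP-1 transcription factor. Atf3 is a member of the ATF/CREB family of basic leucine zipper factors that is induced by many kinds of stress and often acts as a repressor. Zfp36, also called tristetraprolin, is an RNA-binding protein that brings the decay machinery to mRNAs with AU-rich elements, among them mRNAs of cytokines and its own mRNA. Enzymatic tissue digestion is itself known to induce immediate-early genes. No undigested cell was measured, so a level present in the skin and a level raised during digestion cannot be told apart.

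The regulatory sequence around the start of transcription is shown because these genes are controlled there by signal-dependent factors. On GRCm38 as annotated by GENCODE M21, Fos (ENSMUSG00000021250) spans chr12:85473890-85477273 on the plus strand. Atf3 (ENSMUSG00000026628) spans chr1:191170296-191218039 on the minus strand, and Zfp36 (ENSMUSG00000044786) spans chr7:28376784-28380253 on the minus strand. Gene models on the opposite strand overlap Atf3 and Zfp36 and have no row in the table, and no source used here says whether counting used strand. Each window below holds 250 bases before and 50 bases after the start annotated by RefSeq on GRCm38.p6, and is written 5′ to 3′ on the strand of the gene. The Fos window is chr12:85473640-85473939 (plus strand), the Atf3 window chr1:191183284-191183583 (minus strand) and the Zfp36 window chr7:28379179-28379478 (minus strand). The RefSeq starts of Atf3 and Zfp36 lie inside their GENCODE spans. Capitals mark matches to the motifs named after the sequences.
Fos promoter: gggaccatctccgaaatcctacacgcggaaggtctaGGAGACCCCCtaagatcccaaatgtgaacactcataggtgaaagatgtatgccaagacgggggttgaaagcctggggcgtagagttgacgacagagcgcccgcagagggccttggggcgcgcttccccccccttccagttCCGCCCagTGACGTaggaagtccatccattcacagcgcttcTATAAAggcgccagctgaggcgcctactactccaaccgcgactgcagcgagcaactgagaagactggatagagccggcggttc
Atf3 promoter: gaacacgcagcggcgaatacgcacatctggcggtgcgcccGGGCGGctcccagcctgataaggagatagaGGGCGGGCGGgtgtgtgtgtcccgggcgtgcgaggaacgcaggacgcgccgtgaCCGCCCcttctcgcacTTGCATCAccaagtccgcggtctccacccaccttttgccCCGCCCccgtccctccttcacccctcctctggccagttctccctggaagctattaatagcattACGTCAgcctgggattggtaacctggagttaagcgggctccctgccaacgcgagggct
Zfp36 promoter: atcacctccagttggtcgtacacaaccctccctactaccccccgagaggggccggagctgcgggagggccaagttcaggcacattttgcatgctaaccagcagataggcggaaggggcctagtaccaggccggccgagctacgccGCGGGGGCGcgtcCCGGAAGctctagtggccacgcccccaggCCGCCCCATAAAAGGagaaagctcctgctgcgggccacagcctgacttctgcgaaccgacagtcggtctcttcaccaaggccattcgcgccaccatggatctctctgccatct

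Both strands were searched for 10 motifs: the CRE core TGACGT bound by ATF/CREB factors, the AP-1 element TGANTCA, the composite C/EBP-ATF element TGATGCAA, the TATA box TATAAA, the EGR element GCGNGGGCG, the ETS element CCGGAAG, the GC box GGGCGG, the heat-shock element GAANNTTC, the CArG box of serum response factor and an NF-kB site. The Fos window held a CRE core 66 bases upstream of the start, a TATA box at 33, a GC box at 74 and an NF-kB match at 214. The Atf3 window held a CRE core 8 bases upstream, a C/EBP-ATF element at 110 and GC boxes at 71, 126, 176, 180 and 210, of which the pair at 176 and 180 overlap. The Zfp36 window held an EGR element 105 bases upstream, an ETS element at 92, a GC box at 63 and a CArG box at 58 that shares its first base with the GC box. The serum response element for which Fos is known lies upstream of this window.

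A CRE core was present in 7.51% of all 32851 RefSeq windows of the same length, in 11.95% of the windows of genes in the table, and in 29.8% of the 47 windows of early-response genes (31 of 44 listed genes had one). The CArG box was present in 1.63% of all windows, in 1.31% of those of genes in the table and in 10.6% of the early-response windows. The C/EBP-ATF element was rarer, at 0.89% of all windows, 0.58% of those of genes in the table and 2.1% of the early-response windows. For the remaining matches the shares are given in the same order, of all windows, of those of genes in the table and of early-response windows. The TATA box was in 13.62%, 7.31% and 19.1%, the EGR element in 5.55%, 10.82% and 8 of the 47, and the ETS element in 8.86%, 18.87% and 4.3%. The NF-kB site was in 8.46%, 10.5% and 10.6%, and the GC box in 35.66%, 64.09% and 68.1%. No match to the AP-1 element (7.81% of all windows) or the heat-shock element (7.86%) was found in these 3 windows. A match describes the letters and shows no binding.

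**Figure D1:**
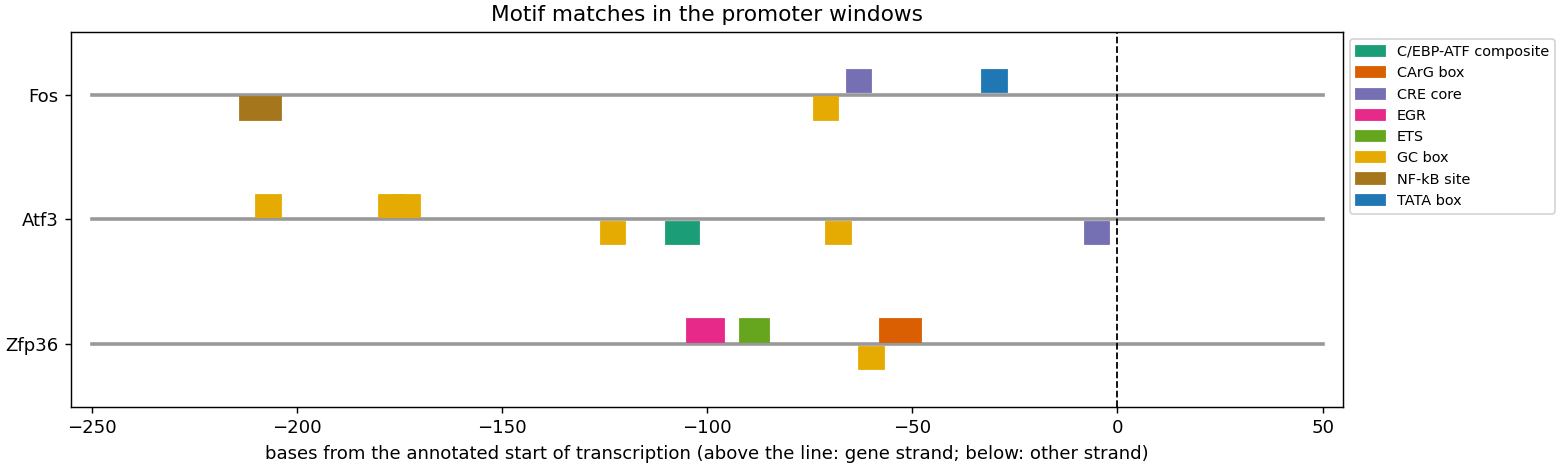
Motif matches in the promoter windows of Fos, Atf3 and Zfp36, against distance in bases from the RefSeq start of transcription (dashed line). Blocks above each line are on the strand of the gene and blocks below it on the other strand. The CRE cores of Fos and Atf3 lie 66 and 8 bases upstream, and the CArG box of Zfp36 lies 58 bases upstream.

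AU-rich elements in the 3′ UTR, the sites through which ZFP36 proteins act, are shown for the members that hold the full nonamer TTATTTATT. The Fos 3′ UTR (GENCODE M21, 815 bases) held 4 copies of the pentamer ATTTA and 1 nonamer, and the Zfp36 3′ UTR (774 bases) held 3 pentamers and 1 nonamer. The Atf3 3′ UTR (1186 bases) held 3 pentamers and no nonamer. In the lines that follow, each the 30 bases ending with the nonamer, capitals mark pentamers and the nonamer. The first is chr12:85477092-85477121 (plus strand) and the other is chr7:28376961-28376990 (minus strand).
Fos AU-rich site: cgtttttattgtgttttcaATTTATTTATT
Zfp36 AU-rich site: ggccctttATTTAtgacgactTTATTTATT
Among the 8310 genes of the table with an annotated 3′ UTR, 7.6% held the nonamer and 70.1% the pentamer. The nonamer was present in 18.2% of the 44 early-response genes measured and in 36.4% of 11 listed mRNAs that ZFP36 is known to bind.

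The table holds logarithms, read here as log2(FPKM + 1), where FPKM is the fragment count scaled by transcript length and by the fragments mapped. Neither the log base nor the constant added is given, so each FPKM threshold depends on this reading. The sorted values of any 2 cells differed by at most 0.0165 above a value of 3, the form that quantile normalisation leaves. Sequencing depth is therefore unknown, every cell has nearly the same set of values, and what varies between cells is the rank of a gene. Libraries came from a 3′ end kit, for which division by gene length may not be apt, and levels compared between genes are per length as deposited.

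The labels name no cell type beyond Tomato+ skin cells, and the cells carried fibroblast markers. Of 13 fibroblast markers 12 were in the table, and 10 were detected in all 17 cells, detection being FPKM of 1 or more. Over all 8431 gene symbols 13% were detected in every cell. Of the markers of other cell types, Krt10 of keratinocytes was the 1 measured of 6 and was detected in 5 cells. Of 6 endothelial markers 3 were measured, with Tek in 7 cells, Plvap in 5 and Esam in 3, and the 1 of 6 immune markers measured, Csf1r, was in 5. None of the 6 measured of 7 mural markers was detected in more than 7 cells. Of the 3 measured of 5 adipocyte markers Fabp4 was in 12, Cfd in 7 and Car3 in 6 cells, and of the 3 measured of 7 nerve and pigment markers Mbp was in 12, with S100b and Mitf in 5 each.

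Libraries also fell into sets that share low values. The sets were made on 223 genes under 2.5 in all cells, by Spearman correlation with average linkage. Their number was fixed at 3. They were cells 1 to 5, cells 6 to 14 and cells 15 to 17, and Pearson correlation did not recover them. Cells 8 and 9 stood apart on Atf3. Over the 44 measured early-response genes cell 8 stood apart with a mean of 2.73, and cell 9, at 3.53, was close to cell 1 at 3.72, the others reaching 5.77. Many of the correlations are given with and without these cells. Their numbers of genes at the lowest value, 1259 and 1247, lay within the range of 871 to 1766 over all cells. Within their own set, cells 6 to 14, they were the highest, the others there running from 871 to 1210.

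All 3 genes were detected in 17 of 17 cells, with an exact 95% Clopper-Pearson interval of 80.5% to 100%. That share covers counting error only, and 13% of all gene symbols reached it. Fos was the highest of the 3 on average and Atf3 the most variable. At the stricter threshold of FPKM 10, Fos and Zfp36 were above it in all 17 cells and Atf3 in 15 (interval 63.6% to 98.5%).

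Fos had log2 levels of 11.45, 9.42, 11.45, 10.96, 11.20, 8.72, 12.27, 8.35, 10.21, 7.61, 8.05, 12.47, 12.09, 10.26, 7.70, 8.61 and 9.78 in cells 1 to 17, a mean of 10.03 ± 1.65 (SD, n = 17 cells). The values ran without a break from 7.61 in cell 10 to 12.47 in cell 12, the widest gap being 0.70. Ranked within each cell against all genes, Fos reached rank 6 in cell 12, rank 8 in cell 7 and rank 10 in cell 13, had a median rank of 84 and stood at 625 in cell 10. It was among the 100 highest genes in 9 cells. Cells 1 and 3 had the same Fos value because Fos had the same rank in both. Of 73 genes with a mean within 0.5 of that of Fos, 8 (11%) had an SD as high, and their median SD was 0.93.

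Atf3 had log2 levels of 9.14, 8.91, 10.34, 10.58, 9.36, 5.19, 10.14, 1.49, 1.12, 6.72, 6.77, 6.74, 9.15, 8.22, 5.54, 5.58 and 9.72 in cells 1 to 17, a mean of 7.34 ± 2.87 (SD, n = 17 cells) and a median of 8.22. Cells 8 and 9 were far below the rest: the gap between cell 8 at 1.49 and the next cell, cell 6 at 5.19, was 3.69. Within a cell Atf3 stood at rank 56 in cell 4, 3998 in cell 8 and 4260 in cell 9, with a median of 421. Of 213 genes of like mean only 8 (3.76%) varied as much, against a median SD of 1.57.

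Zfp36 had log2 levels of 8.98, 7.99, 9.92, 7.59, 10.18, 8.35, 9.53, 6.16, 6.82, 7.28, 9.61, 9.20, 8.59, 9.22, 8.43, 9.34 and 10.90 in cells 1 to 17, a mean of 8.71 ± 1.25 (SD, n = 17 cells). It was the steadiest of the 3, with the lowest values in cells 8 and 9 and the highest in cell 17. Its SD was reached by 44 of 126 genes of like mean (34.9%), whose median SD was 0.95. Within a cell it stood at rank 39 in cell 17 and 1367 in cell 8, with a median of 240.

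**Figure D2:**
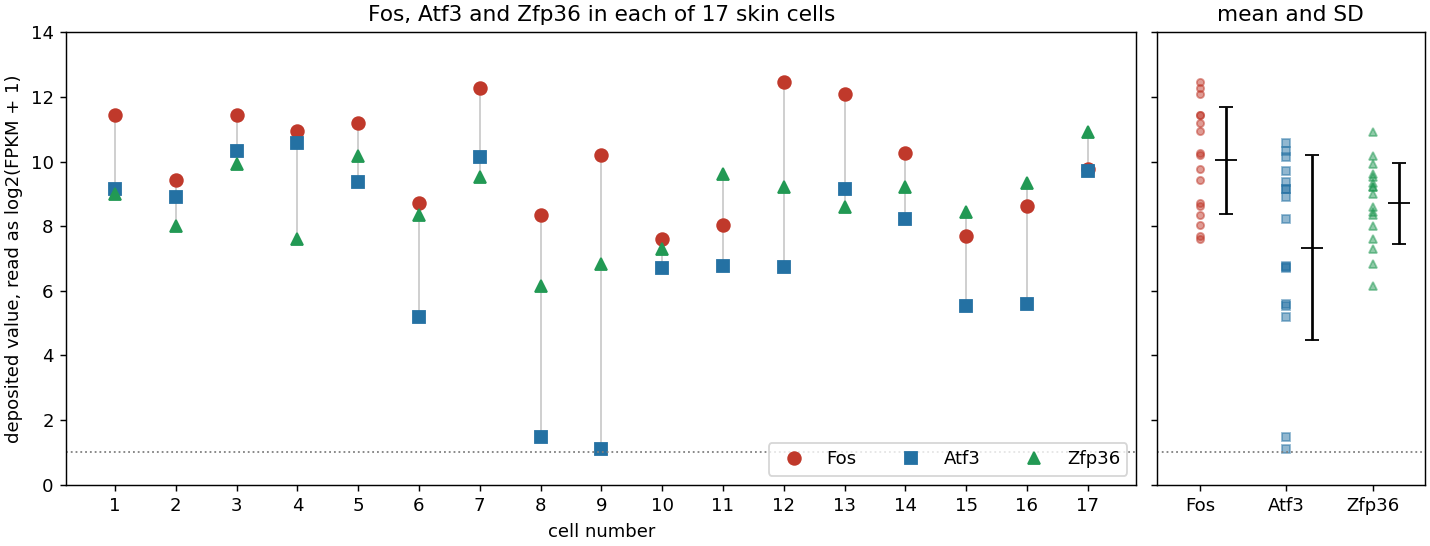
Deposited values of Fos, Atf3 and Zfp36, read as log2(FPKM + 1), in each of 17 skin cells (left), and all cells with the mean and SD for each gene (right). The dotted line marks FPKM 1. Atf3 is at 1.49 in cell 8 and 1.12 in cell 9, where Fos is at 8.35 and 10.21.

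Per length, Fos was above Atf3 in 17 of 17 cells and above Zfp36 in 13 (exact 95% interval 50.1% to 93.2%), and Zfp36 was above Atf3 in 11 (38.3% to 85.8%). The full order of Fos, Zfp36 and Atf3 held in 7 cells (18.4% to 67.1%). It held in 9 with the values multiplied by exonic length, which for Zfp36 was its whole gene span. These intervals cover counting error only. They treat the cells as independent draws, which cannot be checked because no animal is named. The difference of Fos minus Zfp36 averaged 1.32 log2 units, from −1.56 in cell 11 to 3.50 in cell 13. Its SD between cells, 1.69, was larger than that mean. Zfp36 minus Atf3 averaged 1.38 with a larger SD of 2.27, from −2.99 in cell 4 to 5.70 in cell 9. Fos minus Atf3 averaged 2.70 with an SD of 2.44, from 0.06 in cell 17 to 9.09 in cell 9, and was above 0 in every cell.

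Some cells were high or low for all 3 genes. Cells 3, 5 and 7 were among the 6 highest for each gene, and cells 6, 8 and 10 among the 6 lowest for each. Others went apart: cell 12 had the highest Fos level with Atf3 at 6.74, cell 4 had the highest Atf3 level with Zfp36 at 7.59, and cell 17 had the highest Zfp36 level with Fos at 9.78. Between the sets of libraries that share low values, Atf3 averaged 9.67 in cells 1 to 5, where it lay between 8.91 and 10.58, 6.17 in cells 6 to 14 and 6.95 in cells 15 to 17. Fos averaged 10.89 in cells 1 to 5 and 8.70 in cells 15 to 17, with cells 6 to 14 between them. Zfp36 averaged 8.93 in cells 1 to 5, 8.31 in cells 6 to 14 and 9.56 in cells 15 to 17. Whether the sets reflect the cells or the preparation of the libraries cannot be told apart. Across cells the correlation with how many genes stood at the lowest value was 0.09 for Fos, 0.17 for Atf3 and 0.42 for Zfp36.

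Correlations across the 17 cells are given as descriptions, with no p, and the points share one normalisation. Fos and Atf3 had a Pearson r of 0.53 (Spearman 0.59), which was 0.67 without cells 8 and 9 and 0.50 with the means of the low-value sets subtracted. Fos and Zfp36 had an r of 0.34 (Spearman 0.34), with a range of 0.25 to 0.43 when single cells were left out. Atf3 and Zfp36 had the highest r of the 3 pairs, 0.64 (Spearman 0.55), but it was 0.26 without cells 8 and 9, where both were low. By Pearson r the closest pair was thus Atf3 with Zfp36 over all cells and Fos with Atf3 over the other 15, and by Spearman Fos with Atf3 was closest over all cells. Among 3955 genes compared, those detected in at least 9 cells, Atf3 was 96th by correlation with Fos and Zfp36 was 462nd.

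**Figure D3:**
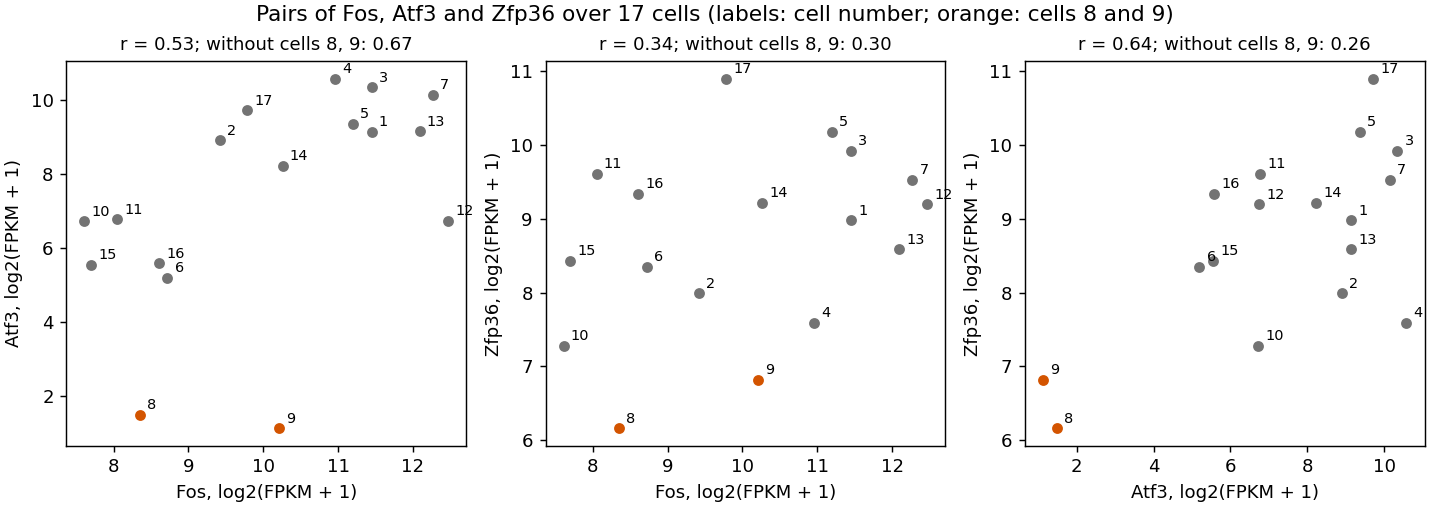
Levels of Fos, Atf3 and Zfp36, read as log2(FPKM + 1), plotted in pairs for 17 cells labelled by number, with cells 8 and 9 in orange. The r of Atf3 with Zfp36 is 0.64 over all cells and 0.26 without the orange points, and that of Fos with Atf3 is 0.53 and 0.67.

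Of the other AP-1 subunit genes, the Jun family members Junb, Jun and Jund, whose proteins pair with Fos, and Fosb were detected in all 17 cells. Of 15 listed AP-1 and Maf genes 12 were in the table, and 10 were compared. Jun followed Fos (r = 0.67, and 0.67 without cells 8 and 9) more than it followed Atf3 (0.31) or Zfp36 (0.26). Jun had its lowest level, 5.05, in cell 10, where Fos was lowest too, a median of 7.41 and its highest level, 9.56, in cell 13. Fosb, a close relative of Fos, had an r of 0.62 with Fos, 0.63 with Atf3 and 0.52 with Zfp36, and without cells 8 and 9 these were 0.67, 0.45 and 0.18. Its level was 1.17 in cell 8 and between 4.14 and 9.52 in the others. Junb, at 1.41 in cell 8 and 5.67 to 9.27 elsewhere, had r values of 0.35, 0.48 and 0.49 with Fos, Atf3 and Zfp36, which were 0.25, 0.05 and 0.08 without cells 8 and 9. Over the 10 genes compared the median r was −0.02 with Fos, 0.19 with Atf3 and 0.37 with Zfp36, beside 0.00, −0.01 and 0.00 over all 3953 genes compared. The medians of this list were −0.10, −0.03 and 0.14 without cells 8 and 9.

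Across other immediate-early and early-response genes, 44 of 47 listed were in the table, 12 were detected in all cells and 33 were compared. Their median r was 0.01 with Fos, 0.35 with Atf3 and 0.34 with Zfp36. Without cells 8 and 9 the medians were −0.04, −0.06 and 0.13, so the higher medians for Atf3 and Zfp36 rested largely on those cells. An r of 0.5 or more with Fos was reached by 4 of the 33, with Atf3 by 7 and with Zfp36 by 8, where the shares over all genes compared were 3.26%, 2.4% and 1.8%. An r of −0.5 or less was reached by 2, 2 and 1, against 3.44%, 1.72% and 2.1%. With those cells left out, 4, 4 and 1 of the 33 were at 0.5 or more (4.71%, 4.22% and 2.45% of all genes) and 5, 3 and 0 at −0.5 or less (5.19%, 3.67% and 2.76%).

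Egr1, a zinc finger transcription factor induced along with Fos, was the early-response gene most like Fos (r = 0.72) and had an r of 0.60 with Atf3 and 0.51 with Zfp36. Its levels were 7.69, 8.41, 9.25, 8.79, 8.72, 6.14, 9.43, 5.09, 7.28, 5.44, 9.13, 9.30, 8.93, 8.41, 5.76, 7.95 and 6.64 in cells 1 to 17. The 4 lowest cells were 6, 8, 10 and 15, each also low for Fos, and cell 11 was high for Egr1 and low for Fos. Without cells 8 and 9 the r values of Egr1 were 0.71 with Fos, 0.53 with Atf3 and 0.33 with Zfp36. Ier2 (0.67), Socs3 (0.59) and Btg2 (0.56) were the other early-response genes at 0.5 or more with Fos. Socs3, an inhibitor of JAK-STAT signalling, had an r of 0.67 with Atf3, and without cells 8 and 9 its values were 0.60 with Fos and 0.57 with Atf3. Ier2 then had an r of 0.76 with Atf3, against 0.40 over all cells.

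**Figure D4:**
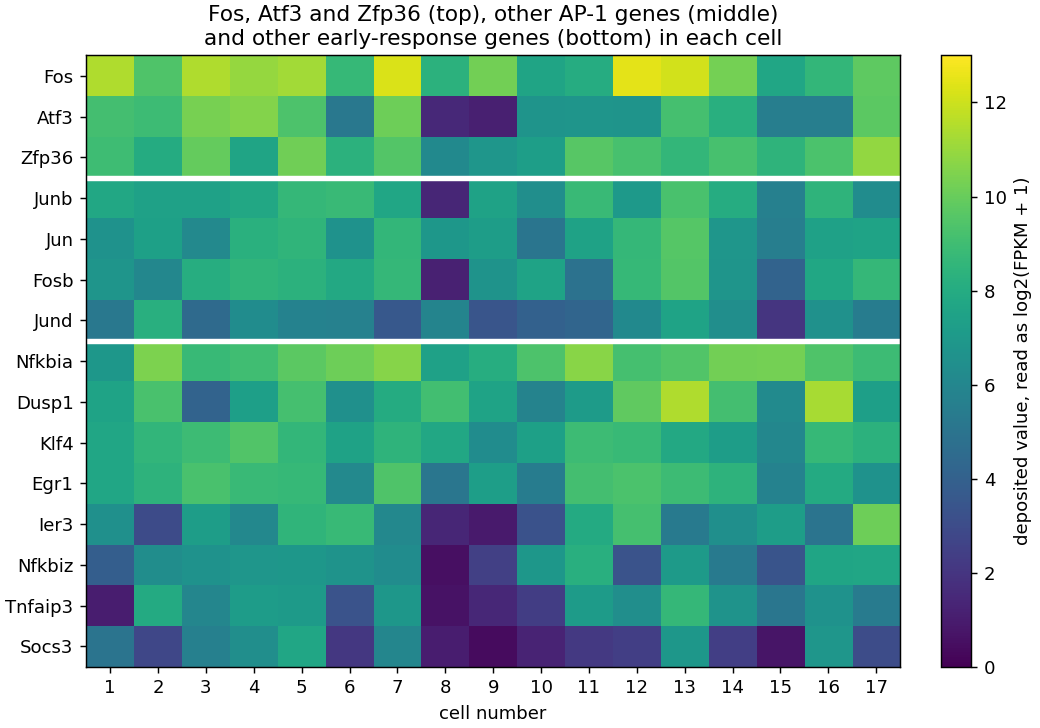
Deposited values, read as log2(FPKM + 1), of Fos, Atf3 and Zfp36 (top), 4 other AP-1 genes (middle) and 8 other early-response genes (bottom) in each of 17 cells, with the colour scale from 0 to 13. Cell 8 is dark for Atf3, Junb, Fosb, Ier3, Nfkbiz, Tnfaip3 and Socs3, while Dusp1 is at 9.08 and Klf4 at 7.79 there.

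By Pearson r over all cells Zfp36 went most closely with Ier3, an early-response gene linked to survival under stress (0.82, and 0.67 without cells 8 and 9). Of the 10 genes of highest r with Zfp36, Anp32a (0.78), Ngfrap1 (0.73) and Gdap2 (0.71) were above Ier3 (0.68) by Spearman. Without cells 8 and 9, Cltc (0.80) and Anp32a (0.69) of these 10 were above Ier3 by Pearson r. Ier3 was lowest in cell 9 at 0.94 and cell 8 at 1.39, and highest in cell 17 at 10.15, the cell that was also highest for Zfp36. Ier3 had an r of 0.25 with Fos and 0.53 with Atf3. Nfkbiz, which encodes an atypical inhibitor protein of the pathway, had an r of 0.64 with Atf3 and 0.59 with Zfp36, and Tnfaip3, a feedback inhibitor, had 0.63 and 0.53. Without cells 8 and 9 these were 0.18 and 0.18 for Nfkbiz and 0.29 and 0.19 for Tnfaip3. Nfkbia, the NF-kB inhibitor with the highest mean of the list (9.33 ± 1.09, SD, n = 17 cells), had an r of −0.17, 0.27 and 0.33 with Fos, Atf3 and Zfp36, and −0.35, −0.30 and −0.07 without cells 8 and 9.

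Early-response genes as a list did not go with Fos, with a median r of 0.01 over the 33 compared. Dusp1, a phosphatase that switches off MAP kinases, had a mean of 8.05 ± 1.91 (SD, n = 17 cells) and an r of 0.24 with Fos, −0.08 with Atf3 and 0.00 with Zfp36. Rhob, a small GTPase gene, had −0.69 with Fos and −0.51 with Atf3, and Nr4a3, an orphan nuclear receptor gene, had −0.56 with Fos and 0.00 with Atf3 (−0.70 and −0.53 without cells 8 and 9). Ctgf, a matricellular gene, was the gene of lowest r with Atf3 (−0.80, and −0.50 without cells 8 and 9). Ctgf was at 7.55 in cell 8, 8.11 in cell 9 and 8.14 in cell 15, and between 0.00 and 1.78 in the other cells. Mdn1, a ribosome assembly gene, was at 7.50 in cell 8 and 6.00 in cell 9, and had an r of −0.79 with Atf3 (Spearman −0.47, and Pearson −0.37 without those cells).

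The genes nearest to each member were taken as the 10 with the highest r among 3955. Those of Fos were Pld3 (0.88), Gstm5 (0.79), Cd302 (0.79), Lum (0.75), Cd81 (0.75), Abhd4 (0.75), Eif3g (0.75), Plscr3 (0.74), Trp53i13 (0.74) and Dnajc30 (0.73). Egr1 came next, 11th, and was detected in all 17 cells, while Abhd4 and Plscr3 were detected in 10 and Dnajc30 in 9. With single cells left out in turn, Dnajc30 stayed among the 10 nearest in 6 of 17 runs, and Plscr3 and Trp53i13 in 8 each. Pld3, a lysosomal enzyme of the phospholipase D family, had levels of 6.46, 1.71, 6.70, 4.72, 7.11, 1.40, 6.74, 0.56, 5.14, 1.57, 0.25, 6.04, 4.90, 4.79, 0.32, 3.71 and 5.54 in cells 1 to 17. It was under 2 in cells 2, 6, 8, 10, 11 and 15, all of them among the 7 cells lowest for Fos, and the other of those 7, cell 16, was at 3.71. Lum encodes lumican, a proteoglycan of collagen matrix, Cd81 a tetraspanin and Gstm5 a glutathione transferase. Pld3, Gstm5 and Cd302 were among the 10 nearest whichever cell was left out, and without cells 8 and 9 7 of the 10 were kept. The lowest r with Fos was that of Srsf10, a splicing regulator (−0.82), followed by Eif4g1 (−0.80) and Galnt16 (−0.79).

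The genes nearest to Atf3 were Fam198b (0.79), Ms4a4d (0.79), Rbbp7 (0.70), Hspa1b (0.70), Socs3 (0.67), Ddah2 (0.66), Sepn1 (0.65), Zfp36 (0.64), Nfkbiz (0.64) and Irf2 (0.63). None of these 10 was among the 10 nearest when cells 8 and 9 were left out, and Sepn1 then had an r of 0.02. Fam198b had 0.72 without them and stayed among the 10 nearest when any single cell was left out. Fam198b was detected in 12 cells. It was at 0.19 in cell 8 and 0.09 in cell 9, and at 5.89, 4.16, 5.01, 6.46 and 5.89 in cells 1 to 5.

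The genes nearest to Zfp36 were Ier3 (0.82), Anp32a (0.75), Gdap2 (0.69), Sepn1 (0.68), Ngfrap1 (0.68), Gem (0.67), Cltc (0.66), Pnrc1 (0.64), Atf3 (0.64) and Ms4a4d (0.64). Of these, 2 were kept without cells 8 and 9. Ier3 and Anp32a stayed whichever single cell was left out, and Gem, a small GTPase gene, had an r of 0.28 without cells 8 and 9. Atf3 and Zfp36 shared 2 of their 10 nearest genes, Sepn1 and Ms4a4d, Fos and Atf3 shared 0, and Fos and Zfp36 shared 0. Each list is 10 of 3955 genes, so a count of 0 shows no separation of the members. Without cells 8 and 9, Sepn1 had an r of 0.02 with Atf3 and 0.35 with Zfp36, and Ms4a4d 0.55 and 0.41.

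An r of 0.5 or more with all 3 members was reached by 6 of 3953 genes (0.152%), namely Egr1, Fosb, Hspa1b, Ms4a4d, Pld3 and Rbbp7. Leaving out cells 8 and 9, Pld3 alone of these 6 was at 0.5 or more with all 3 (0.87, 0.69 and 0.52). The other 5 were then below 0.5 with Zfp36, with Rbbp7 at 0.31 and Ms4a4d at 0.41, and over all genes 4 reached 0.5 with all 3 (0.101%). With at least 2 members it was reached by 37 genes (0.936%) over all cells. Hspa1b encodes an inducible Hsp70 chaperone. It had an r of 0.51 with Fos, 0.70 with Atf3 and 0.51 with Zfp36, and without cells 8 and 9 the values were 0.58, 0.54 and 0.29. Its highest levels were in cell 7, at 9.40, and cell 5, both high for all 3 genes, and it was lowest in cell 15, at 0.76, and cell 9, at 0.81.

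**Figure D5:**
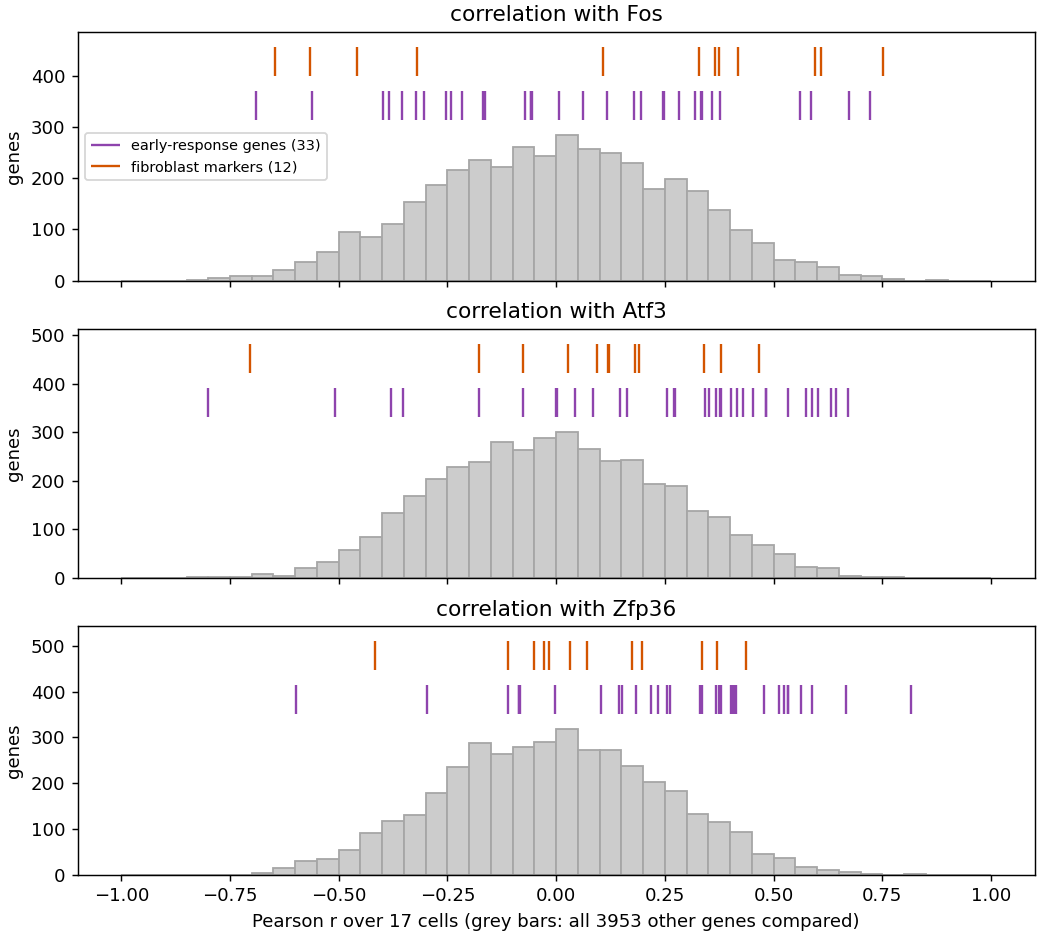
Distribution of Pearson r over 17 cells with Fos, Atf3 and Zfp36 for 3953 other genes (grey bars, number of genes), with ticks for 33 early-response genes and 12 fibroblast markers. The early-response ticks have a median of 0.01 for Fos, 0.35 for Atf3 and 0.34 for Zfp36, and the fibroblast ticks 0.35, 0.12 and 0.05.

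Heat-shock genes as a list did not share the pattern of Hspa1b. All 13 listed were in the table, 6 were detected in all cells, and the 11 compared had a median r of 0.07 with Fos, 0.12 with Atf3 and 0.19 with Zfp36. The abundant chaperone genes Hspa8 (mean 9.01), Hsp90ab1 (9.03) and Hsp90aa1 (8.47) had r values between −0.27 and 0.33 with the 3 members, and Hspe1 had −0.55 with Zfp36. The integrated stress and unfolded protein response, a route by which Atf3 is known to be induced through Atf4, was measured by 13 of 17 listed genes. Of the 12 compared, the median r with Atf3 was −0.01, with Fos −0.10 and with Zfp36 0.08. By Spearman these were 0.18, −0.08 and 0.21. Atf4 itself had a mean of 7.47 ± 1.26 (SD, n = 17 cells) and an r of 0.04 with Atf3 (Spearman 0.27). Atf4 is regulated largely at translation, which mRNA does not show. Ppp1r15a, a stress-induced phosphatase subunit, was the 1 gene of this list at 0.5 or more with Atf3 (0.55, and 0.14 without cells 8 and 9).

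The other ATF, CREB and C/EBP genes, of which 18 of 19 were in the table, included 12 compared, with a median r of −0.23 with Fos, 0.03 with Atf3 and 0.00 with Zfp36. Atf4, Creb3 (mean 5.29), Cebpd (5.21) and Cebpb (4.85) had the highest means. Of 33 listed genes of signalling upstream of Fos, 25 were in the table, and the 15 compared had a median r of −0.08 with Fos, 0.00 with Atf3 and 0.06 with Zfp36. Camk2d (mean 6.15), Egfr (5.78) and Map2k3 (4.11) were among the highest of that list by level. Mapkapk2, a kinase that acts on Zfp36 protein, had a mean of 1.59 and was detected in 9 cells. Its r values were −0.61, −0.56 and −0.58 with Fos, Atf3 and Zfp36, and −0.58, −0.52 and −0.47 without cells 8 and 9. Over all cells it was the 1 gene of the 15 at −0.5 or less with each member, beside 3.44%, 1.72% and 2.1% of all genes compared. Srf, the serum response factor gene, was detected in 5 cells and was not compared.

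Within the Zfp36 family, Zfp36l1 had a mean of 6.89 ± 1.94 and Zfp36l2 4.96 ± 1.79 (SD, n = 17 cells each), both below Zfp36 on the per-length scale. Zfp36l1 had an r of 0.24 with Zfp36 and Zfp36l2 −0.31. Of 25 listed genes of this family and of mRNA decay, 24 were in the table, and the 12 compared had a median r of 0.00 with Zfp36. Among 17 mRNAs that ZFP36 proteins are known to bind, 11 were in the table and 4 were detected in all cells. Cxcl1, a neutrophil chemokine (mean 11.83), Ccl7 (10.24) and Ccl2 (9.90), monocyte chemokines, and the cytokine Il6 (6.12) had the highest means. The 10 compared had a median r of 0.21 with Zfp36, 0.04 with Atf3 and −0.30 with Fos, and without cells 8 and 9 these were 0.21, −0.25 and −0.38. Cxcl1 had an r of 0.63 with Zfp36 (0.36 without cells 8 and 9), and was at 6.90 in cell 8, the cell lowest for Zfp36. The values lowest with Fos were those of Pim3 (−0.55), Ptgs2 (−0.52), Ccl7 (−0.49) and Ccl2 (−0.43).

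Fibroblast markers had a higher median r with Fos than with Atf3 or Zfp36. The 12 compared had a median r of 0.35 with Fos, 0.12 with Atf3 and 0.05 with Zfp36, and for Fos it was 0.34 by Spearman and 0.31 with set means subtracted. When cells 8 and 9 were left out the medians were 0.33, 0.27 and 0.17. Lum (0.75), Serpinf1 (0.61) and Col5a2 (0.60), genes of the extracellular matrix and its secreted proteins, were at 0.5 or more with Fos. Lum had an r of 0.47 with Atf3 over all cells and 0.85 without cells 8 and 9. Thy1 (−0.65) and Mfap5 (−0.57) were at −0.5 or less. Thus 3 of the 12 were at 0.5 or more with Fos and 2 at −0.5 or less, where the shares over all genes compared were 3.26% and 3.44%. Without cells 8 and 9 the counts were again 3 and 2, beside 4.71% and 5.19%. With Atf3 they were then 3 and 1, beside 4.22% and 3.67%, and with Zfp36 1 and 0, beside 2.45% and 2.76%. Serpinf1 was then at 0.5 or more with Fos, Atf3 and Zfp36 (0.63, 0.54 and 0.58). Mfap5, a microfibril-associated gene, was highest in cell 8 at 11.96 and next in cell 9 at 11.81, and had an r of −0.70 with Atf3 (−0.52 without those cells). Lum was high in cells 5, 7 and 13 (11.49, 11.22 and 11.03) and low in cells 6, 11 and 15 (6.61, 6.73 and 6.59), and those 3 low cells were among the 7 lowest for Fos. Housekeeping genes had medians of −0.01, 0.03 and 0.06 with Fos, Atf3 and Zfp36 over 11 genes, and Actb among them had −0.55, −0.53 and −0.36.

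In cells 8 and 9, where Atf3 was lowest, markers of other cell types were low with few exceptions. In cell 8, Acta2 was at 5.64 (the next highest cell was at 2.00) and Cfd at 6.79, and 2 of the 3 measured endothelial markers were detected, while Krt10 was at 0.00, Csf1r at 0.08, Fabp4 at 0.00 and Myl9 at 0.00. In cell 9, Krt10 and Csf1r were at 0.00, Acta2 at 0.17 and Cfd at 0.23, and none of the measured markers of the other cell types was detected. Over the 6 measured mural genes the mean level was 0.96 in cell 8 and 0.09 in cell 9, within the range of 0.03 to 1.91 over all cells. The part of other cell types in the low Atf3 values was not tested. The 12 measured fibroblast markers had mean levels of 8.38 in cell 8 and 8.04 in cell 9, inside the range of 7.29 to 9.28 over all cells.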

How the data were processed

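The authors deposited 1 table of log values for 17 cells. TopHat2, Cufflinks and the build GRCm38 are named, with no version, in the submitters' processing notes. The log base and the constant are not given there, and the log2 reading was made here from the deposited values. Depth is unknown, so the number of cells limits the precision. No count model was used. Where a symbol had several rows, the row with the highest mean was kept. Detection was a log value of 1 (FPKM 1). Correlations covered genes detected in at least 9 cells. The text names the 3 members, for each the 10 genes of highest and 3 of lowest r, and from each list the 4 of highest mean, any at r of 0.5 or more with 2 members, and undetected defining markers. One gene that this rule names is not reported here. Names beyond these were chosen after their values were seen. Members and lists were chosen with earlier results of these data known. The search for nearest genes was tested on simulated data. Promoters came from RefSeq (GRCm38.p6), gene spans, lengths and UTRs from GENCODE M21. Python 3.11.15, numpy 2.4.6, pandas 2.3.3 and scipy 1.17.1 were used.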

Additional observations from a re-analysis of the deposited data

How the results depend on the processing

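Under each alternative run that kept all cells, each gene was detected in 15 to 17 cells, and the means of Fos and Atf3 moved by less than 1 SD. Multiplied by exonic length, the mean of Zfp36 was 10.50, against 8.71 as deposited with an SD of 1.25, so it moved by more than 1 SD. The exonic length of Zfp36, 3470 bases, equals its whole gene span. For a correlation a move means more than 0.5 of the range over single cells left out. Without cells 8 and 9, an alternative chosen after seeing the data, the r of Fos with Atf3 was 0.67 and that of Atf3 with Zfp36 0.26, and leaving out the 2 cells farthest from the Atf3 median, which are the same cells, gave 0.26 again. In cells 6 to 14 alone, r was 0.82 for Atf3 with Zfp36 and 0.46 for Fos with Zfp36. That set includes cells 8 and 9, where both Atf3 and Zfp36 were lowest. Fos with Zfp36 also had 0.51 with set means subtracted and 0.25 without the 2 cells farthest from the Fos median. Leaving out single cells gave 0.48 to 0.66 for Fos with Atf3, 0.25 to 0.43 for Fos with Zfp36 and 0.51 to 0.76 for Atf3 with Zfp36.

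For Fos the median r of the early-response genes was 0.0056 over all cells and −0.042 without cells 8 and 9. Beside these stood 0.005 and 0.001 over all genes compared, so there was no clear direction to reverse. For Atf3 the median reversed to −0.056 without those cells, and for Zfp36 the median was 0.13. Over genes detected in all 17 cells it was 0.30 for Fos and 0.19 for Zfp36, and by Spearman 0.21 for Atf3. Single cells left out gave 0.18 to 0.37 for Atf3 and 0.20 to 0.40 for Zfp36. For Fos they gave −0.064 to 0.082, negative without cell 4 (−0.015), 5 (−0.022), 7 (−0.023), 8 (−0.041) or 15 (−0.064). Of the 10 nearest genes, Spearman kept 6 for Fos, 3 for Atf3 and 4 for Zfp36. Genes detected in all cells gave 3, 2 and 3, where fewer genes were compared. Set means subtracted kept 5 for Atf3 and 5 for Zfp36, and leaving out cells 8 and 9 kept 0 and 2. Single cells left out kept 4 to 10 for Fos, 2 to 9 for Atf3 and 4 to 9 for Zfp36. The causes of these moves were not tested. Unknown depth, quantile normalisation and 17 cells with no named animal limit all values. No paired analysis was possible because there is 1 group.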

Other observations

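Of the genes named, Ctgf split the cells without intermediate values: 7.55, 8.11 and 8.14 in cells 8, 9 and 15, and at most 1.78 in the other 14. These 3 cells had Atf3 at 1.49, 1.12 and 5.54, Socs3 at 1.05, 0.39 and 0.76, Fam198b at 0.19, 0.09 and 0.77, and Hspa1b at 3.67, 0.81 and 0.76. Fam198b was low in cells 6 (0.35) and 11 (0.90) too, where Ctgf was at 1.55 and 1.73.

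The AU-rich chemokine and cytokine mRNAs did not share one pattern. Il6 was at 10.53 in cell 6, 9.87 in cell 10 and 9.71 in cell 5, and at 1.01 in cell 8, 1.06 in cell 9, 2.24 in cell 1 and 2.56 in cell 12. Cell 12 had the highest Fos level, 12.47, and cells 6 and 10 were among the lowest for Fos, at 8.72 and 7.61. Cxcl1 stood at the highest value of the table, 13.69, in cells 6, 7 and 17.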
